A study of Mus musculus with 4 samples.

Results

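This report describes 10 genes of the MHC class I pathway in immune cells of a mouse glioma: the heavy chain genes H2-K1 and H2-D1, the light chain gene B2m, the peptide loading genes Tap1, Tap2 and Tapbp, the immunoproteasome genes Psmb8, Psmb9 and Psmb10, and the regulator Nlrc5. They were chosen by gene symbol, and all 10 were found, once each, among the 31253 genes of the deposited count tables. Live CD45+ cells (leukocytes) were sorted from tumor-bearing brain hemispheres 14 days after CT2a glioma cells had been implanted, and single-cell RNA sequencing counted unique molecular identifiers (UMIs) at the 3' end of transcripts. WT mice were female, of the C57Bl/6 strain background and 8 to 12 weeks old. CaMKK2 KO mice shared that sex, background, age and tumor. They lacked CaMKK2, a calcium-dependent kinase, in the whole animal, so the deletion was not limited to leukocytes. The paper states that C57BL/6J mice were bought, while the CaMKK2 KO line was a gift. Its transgenic lines were made on C57BL/6 or backcrossed to it. The source of the mice may therefore also go with genotype. Hashtag antibodies marked the 4 mice of each genotype, which were pooled on 1 channel of the 10X platform per genotype, so that genotype and channel cannot be told apart.

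MHC class I molecules show short peptides from inside the cell to CD8+ T cells, and their absence can trigger NK cells. A heavy chain (H2-K1 or H2-D1) pairs with beta-2 microglobulin (B2m). The peptides are cut by the proteasome, whose catalytic subunits Psmb5, Psmb6 and Psmb7 are replaced by Psmb8, Psmb9 and Psmb10 in the immunoproteasome, then carried into the endoplasmic reticulum by the Tap1-Tap2 transporter and loaded with the help of tapasin (Tapbp). NLRC5 is a transactivator of class I genes, and interferon gamma induces most of this pathway, in part through IRF1.

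On the mm10 build, 7 of the 10 genes lie within 1351601 bases of chromosome 17, from 33915899 to 35267499, the mouse MHC. These are Tapbp, H2-K1, Psmb9, Tap1, Psmb8, Tap2 and H2-D1. B2m lies on chromosome 2 from 122147686 to 122153083, Psmb10 on chromosome 8 from 105935735 to 105938444 and Nlrc5 on chromosome 8 from 94434356 to 94527272. The 250 bases before the start site were available from RefSeq (GRCm38.p6) for 8 of the 10 genes, not for Tap2 and Nlrc5. They were searched on both strands for an interferon regulatory factor core (AANNGAAA), a palindromic NF-kappaB site (GGGATTCCC), an inverted CCAAT box (ATTGG) and an X2 box core (TGACG), and capitals mark the matches. The heavy and light chain genes are shown because they carried the bulk of the UMIs, and Tap1 because its window is shared with Psmb9. The coordinates are H2-K1 chr17:34000348-34000597 on the minus strand, H2-D1 chr17:35262844-35263093 on the plus strand, B2m chr2:122147437-122147686 on the plus strand and Tap1 chr17:34187306-34187555 on the plus strand.
H2-K1: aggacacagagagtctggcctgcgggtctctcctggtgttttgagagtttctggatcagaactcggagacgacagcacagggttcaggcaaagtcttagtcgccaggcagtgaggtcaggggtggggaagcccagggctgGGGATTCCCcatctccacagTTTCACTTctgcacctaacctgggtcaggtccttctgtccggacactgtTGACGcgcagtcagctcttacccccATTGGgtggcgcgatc
H2-D1: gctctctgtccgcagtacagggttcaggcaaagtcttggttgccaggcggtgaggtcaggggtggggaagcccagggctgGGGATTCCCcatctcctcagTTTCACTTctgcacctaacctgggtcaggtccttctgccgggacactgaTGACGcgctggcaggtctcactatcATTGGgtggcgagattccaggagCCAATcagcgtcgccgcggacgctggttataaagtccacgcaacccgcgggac
B2m: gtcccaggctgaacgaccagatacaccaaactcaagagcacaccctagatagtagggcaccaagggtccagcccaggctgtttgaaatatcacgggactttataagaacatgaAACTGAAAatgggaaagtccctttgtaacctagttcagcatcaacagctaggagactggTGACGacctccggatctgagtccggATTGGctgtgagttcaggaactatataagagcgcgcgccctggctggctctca
Tap1: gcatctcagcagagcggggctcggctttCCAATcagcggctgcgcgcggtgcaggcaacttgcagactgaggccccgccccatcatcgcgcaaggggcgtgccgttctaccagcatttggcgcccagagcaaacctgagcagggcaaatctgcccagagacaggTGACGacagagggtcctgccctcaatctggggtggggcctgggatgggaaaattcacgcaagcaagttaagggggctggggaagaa
The H2-K1 and H2-D1 windows shared an unbroken run of 47 bases. They held the same motifs in the same order, NF-kappaB site, interferon regulatory factor core, X2 box core and inverted CCAAT box. H2-D1 held a further match of that box on the other strand, which reads CCAAT in the direction of the gene. B2m held the interferon regulatory factor core, the X2 box core and the inverted CCAAT box. The Tap1 and Psmb9 starts stood 225 bases apart on opposite strands, so their windows overlapped. Both held the same X2 box core and the same CCAAT box. This box reads ATTGG in the direction of Psmb9 and CCAAT in that of Tap1. Of these 4 motifs, Tapbp held inverted CCAAT boxes and Psmb10 none. Of 32851 promoter windows of this length, 21.3% held AANNGAAA, 0.301% GGGATTCCC, 33.8% ATTGG and 17.8% TGACG.

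After removal of hashtag doublets, outlying cells and scored doublets, 10677 cells remained, 5047 WT and 5630 CaMKK2 KO. Each mouse gave 1006 to 1662 cells and 11890210 to 20345128 UMIs. The 2 libraries shared 42 cell barcodes. Cells were sorted into 13 classes by marker genes, none of them an antigen presentation gene, and 11 classes had at least 10 cells in at least 3 mice per genotype. Of the 9346 cells in these 13 classes, 90.6% fell in an unsupervised cluster of the same class. The clusters were named by the same markers, and T cells in them were split by the same genes. This share is therefore not an independent check of the gates. Camkk2 stood at 27.7, 29.5, 38.8 and 27.8 CPM (UMIs of a gene per 1000000 UMIs) in all cells of the 4 WT mice and at 14.8, 18.4, 13.3 and 22.8 CPM in the CaMKK2 KO mice, lower in each CaMKK2 KO mouse than in any WT mouse but not absent. Whether the counted 3' ends lie in the deleted part was not tested, so this level does not check the deletion itself. Ptprc, which encodes the sorted CD45, stood at 466, 693, 754 and 719.6 CPM in the WT and 819, 1056, 877 and 1028 CPM in the CaMKK2 KO mice.

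In WT mice, mature dendritic cells (mature DC: Ccr7, Fscn1, Ccl22) had the highest mean level of 7 of the 10 genes (B2m, Tap1, Tap2, Tapbp, Psmb8, Psmb10 and Nlrc5). Regulatory T cells (Treg: Foxp3) were highest for both heavy chains, and conventional type 1 dendritic cells (DC1: Xcr1, Clec9a), which specialize in presenting taken-up antigen to CD8+ T cells, were highest for Psmb9. B cells were lowest for B2m, H2-D1, Tapbp, Psmb8, Psmb10 and Nlrc5. Between the highest and lowest of 12 classes the mean CPM differed by 2.37 times for H2-D1 and by 8.57 times for Nlrc5, with the other genes in between.

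H2-K1 reached 5364 ± 166 CPM (SD, n = 3) in WT Treg, above the 4488 ± 449.7 CPM (SD, n = 3) of conventional CD4 T cells without overlap between mice. It fell to 1360.3 ± 118 CPM (SD, n = 4) in DC1. Mature DC, at 4117 ± 324 CPM (SD, n = 3), also lay above the next class, CD8 T cells, without overlap, and the 8 further steps down the order of classes did overlap. Between neighbouring classes in the order of a gene, 9 of 11 steps overlapped for H2-K1, H2-D1 and B2m, 10 of 11 for Tap2, Tapbp and Psmb10, and 11 of 11 for Tap1, Psmb8, Psmb9 and Nlrc5. Levels were not compared between classes within mice, so overlap does not show that neighbouring classes were alike. Psmb9 stood at 566 ± 217 CPM (SD, n = 4) in WT DC1 and at 131 ± 32.4 CPM (SD, n = 4) in WT microglia, its lowest class. Nlrc5 stood at 156 ± 73.1 CPM (SD, n = 3) in WT mature DC and at 18.2 ± 14.7 CPM (SD, n = 4) in B cells. The order is a description without a test. Tumor-associated macrophages (TAM: Adgre1, Mertk, Fcgr1, C1qa), the most numerous class, ranked low in the mean over the 10 genes, above microglia and B cells only. The classes do not rest on the same mice. WT mouse 1 had under 10 cells of Treg, conventional CD4 T cells, mature DC and non-classical monocytes, and is left out there. In WT mice 1 to 4 the mean log2(CPM + 1) was 7.82, 8.73, 8.87 and 8.58 in TAM and 8.39, 8.63, 8.66 and 8.56 in NK cells. The order of TAM and NK cells thus rested on WT mouse 1. Non-classical monocytes, at a mean of 8.68, rest on WT mice 2 to 4, while the mean of TAM, 8.50, includes WT mouse 1. The place of TAM against the classes that leave that mouse out therefore compares unlike mice.

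**Figure D1:**
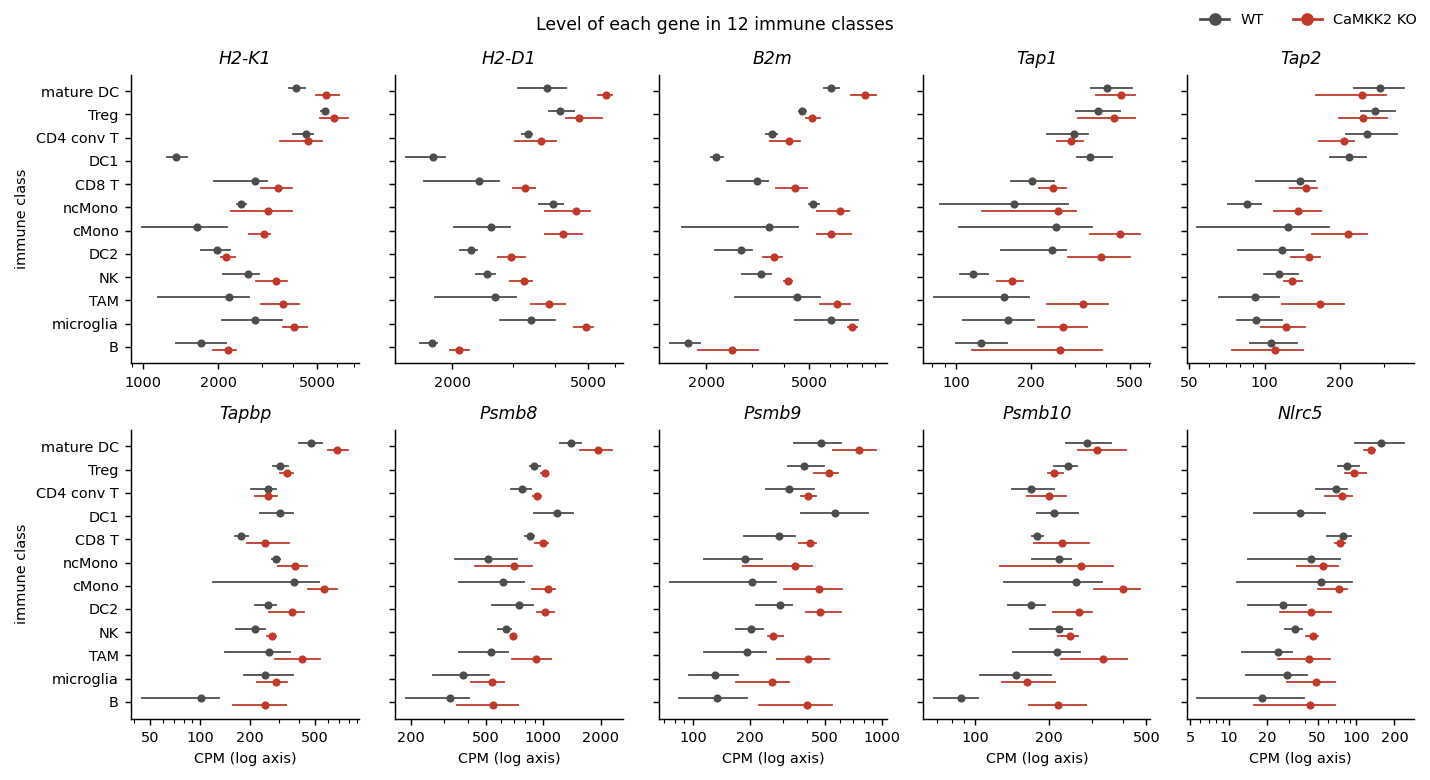
Level of each of the 10 genes in CPM (log axis, its own range in each panel) in 12 immune classes, ordered by the mean over the genes in WT mice. Points are means and lines the lowest to highest mouse in WT (grey) and CaMKK2 KO (red) mice; DC1 of CaMKK2 KO mice are left out because only 2 mice had 10 cells. Mature DC and Treg lie at the upper end for most genes, and B cells at the lower end for 6.

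Over the 12 WT classes, the genes whose mean log2(CPM + 1) most resembled the mean of the 10 were Psme2, a subunit of the proteasome activator PA28 (Pearson r = 0.95), Sin3b (0.93), Rab8b (0.92), Inpp5b (0.91) and Arhgap1 (0.91). All 5 were highest in mature DC and lowest in B cells. The 12 points share libraries and mice, so this is a description.

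TAM carried more of each of the 10 transcripts in CaMKK2 KO than in WT mice, by 0.52 to 1.08 on the log2 scale, but no gene passed the test across all genes. The gate held 1669 WT and 1184 CaMKK2 KO cells. Median UMIs per cell were 16418 and 16552 over the cells of each genotype, and ran from 13796 (CaMKK2 KO mouse 4) to 17443 (CaMKK2 KO mouse 1) over single mice. For the heavy chain H2-K1, the 4 WT mice stood at 1150.2, 2455, 2659 and 2577 CPM and the 4 CaMKK2 KO mice at 3211, 4207, 2981 and 4202 CPM, in hashtag order. H2-D1 stood at 1779, 2867, 3064 and 2923 CPM in WT and 3434, 4263, 3387 and 4272 CPM in CaMKK2 KO mice. In both, every CaMKK2 KO mouse lay above every WT mouse, and WT mouse 1 lay far below the other 3 WT mice. B2m, the light chain gene, stood at 2572, 4869, 5479 and 5017 CPM in WT and 5838, 7149, 5521 and 7217 CPM in CaMKK2 KO mice. Its groups were separated only narrowly, WT mouse 3 and CaMKK2 KO mouse 3 being nearly level. The log2 fold changes were 0.72 (SE 0.25) for H2-K1, 0.53 (SE 0.18) for H2-D1 and 0.52 (SE 0.22) for B2m, with adjusted p of 0.146, 0.134 and 0.215 in edgeR's quasi-likelihood test.

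Among the peptide loading genes, Tap1 stood at 80.9, 181, 197 and 164 CPM in WT and 277, 377, 232 and 410.1 CPM in CaMKK2 KO TAM. Tap2, the other chain of the transporter, stood at 65.5, 102, 114 and 85.2 CPM in WT and 140.1, 202, 117 and 208 CPM in CaMKK2 KO mice. Neither gene overlapped between genotypes, and the lowest CaMKK2 KO mouse was again mouse 3. Tapbp, which encodes tapasin, stood at 142, 303, 352 and 259 CPM in WT and 343, 495, 285 and 538 CPM in CaMKK2 KO mice, and there CaMKK2 KO mice 1 and 3 fell within the WT range. The log2 fold change was 1.06 (SE 0.27, edgeR adjusted p = 0.0778) for Tap1, 0.86 (SE 0.22, edgeR adjusted p = 0.0756) for Tap2 and 0.65 (SE 0.28, edgeR adjusted p = 0.227) for Tapbp.

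Of the immunoproteasome subunits, Psmb9 stood at 114, 233, 244 and 178 CPM in WT and 358, 465, 279.8 and 524 CPM in CaMKK2 KO TAM, with the lowest adjusted p of the 10 genes (0.0645 by edgeR, log2 fold change 1.08, SE 0.26). Psmb8 stood at 362, 583, 648 and 529 CPM in WT and 814, 1046, 686 and 1092 CPM in CaMKK2 KO mice. The groups did not overlap for either. Psmb10, which lies outside the MHC, stood at 143, 245, 268 and 204 CPM in WT and 302, 387, 224 and 416 CPM in CaMKK2 KO mice, and CaMKK2 KO mouse 3 fell within the WT range. Nlrc5 was the sparsest, at 12.7, 28.3, 31.6 and 24.5 CPM in WT and 34.5, 48.5, 24.4 and 62.2 CPM in CaMKK2 KO mice, and CaMKK2 KO mouse 3 again fell within the WT range. Their edgeR adjusted p values were 0.0776 for Psmb8 (log2 fold change 0.78), 0.165 for Psmb10 (0.63) and 0.217 for Nlrc5 (0.78).

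**Figure D2:**
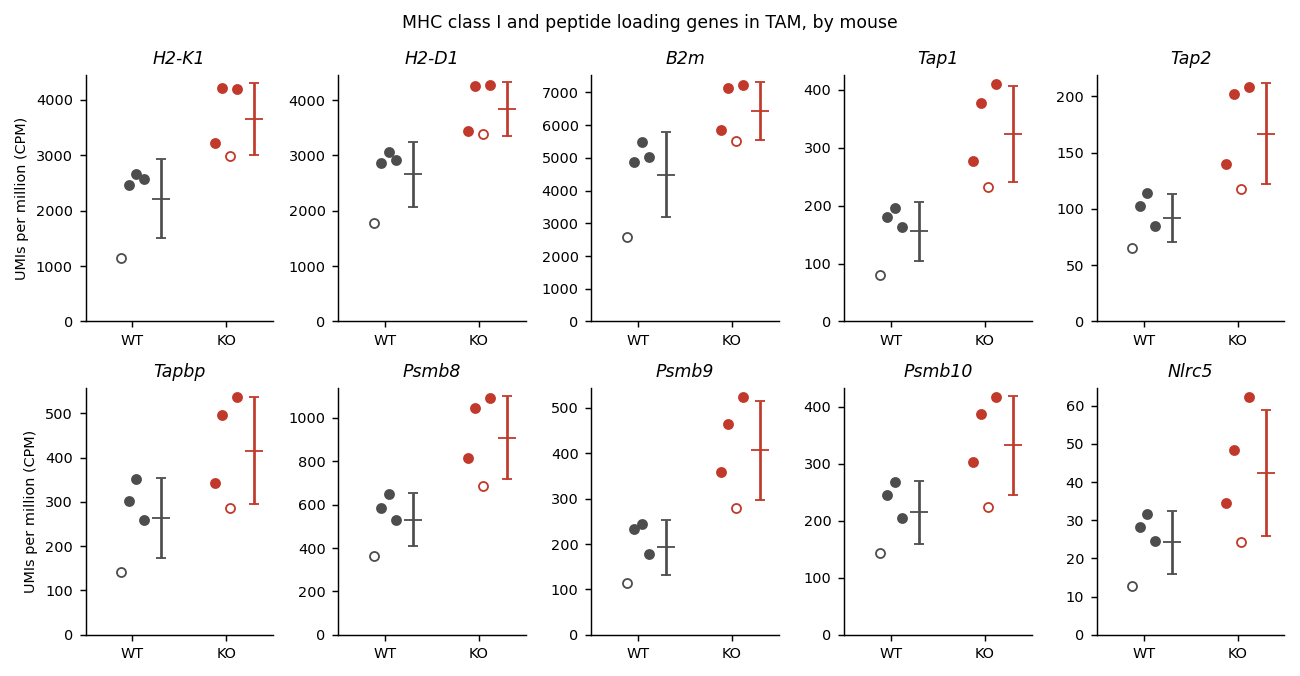
CPM of the 10 genes in TAM, each point 1 mouse, with the mean and SD of the 4 mice beside them, for WT (grey) and CaMKK2 KO (red); each axis starts at 0. Open circles are WT mouse 1, the lowest WT mouse in all 10 panels, and CaMKK2 KO mouse 3, the lowest CaMKK2 KO mouse in all 10.

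By edgeR, 0 of 10 genes were called higher in CaMKK2 KO TAM (adjusted p under 0.05), against 0.872% of all 9287 genes tested. At an unadjusted p of 0.05, 10 of 10 passed in that direction, against 6.85% of all genes. In 7 of 10 every CaMKK2 KO mouse lay above every WT mouse, against 4.01% of all genes. The median log2 fold change was 0.75 over the 10 genes and −0.08 over all genes. All genes split into 81 called higher and 130 lower, and into 109 and 81 with TMM scaling, under which the median of the 10 genes was 0.83. DESeq2 called 6 (H2-K1, H2-D1, Tap1, Tap2, Psmb8 and Psmb9), against 3.71% of all genes, so the call depended on the tool. Without WT mouse 1 the 10 log2 fold changes ran from 0.33 to 0.89 with 0 called, against 0.783% of all genes called higher. Without CaMKK2 KO mouse 3 they ran from 0.59 to 1.22 with 3 called (Tap2, Psmb8 and Psmb9), and the share of all genes called higher also rose, to 1.65%. The classical monocyte markers summed to 387 to 1220 CPM in WT and 1121 to 4334 CPM in CaMKK2 KO TAM (4 of 6 with a higher mean), the TAM markers to 17995 to 18678 CPM and 13157 to 17993 CPM (1 of 7), and the T cell markers to 6.99 to 8.72 CPM and 13.7 to 16.2 CPM (4 of 4), and their part in the result was not tested. With a gate that required a wider margin between classes, the 10 log2 fold changes ran from 0.51 to 1.08, nearly as large as with the original gate. With TAM taken from unsupervised clusters in place of the gate they were smaller, from 0.27 to 0.86 with a median of 0.49, and 0 were called.

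The difference was spread over TAM rather than held by a few cells. Each cell was thinned to 5000 UMIs, which left out 56 WT and 54 CaMKK2 KO cells that were shallower. The median TAM then held 5, 11, 12 and 12 UMIs of H2-K1 in the 4 WT mice and 16, 21, 14 and 21 UMIs in the CaMKK2 KO mice. Cells at the 10th percentile held 2, 5, 6 and 6 UMIs in WT and 9, 12, 7 and 12 UMIs in CaMKK2 KO mice, so the low end of the distribution moved as well. The share of thinned TAM with a UMI of Psmb9 was 40.7, 58.8, 58.4 and 55.6% in WT and 78.6, 89.9, 74.7 and 92.2% in CaMKK2 KO mice. That of Tap1 was 31.3, 52.6, 58.4 and 50.1% in WT and 68.6, 81.7, 62.1 and 82.3% in CaMKK2 KO mice. Mean shares were 53.4% ± 8.57 and 83.9% ± 8.50 for Psmb9, 48.1% ± 11.7 and 73.7% ± 9.97 for Tap1, and 35.8% and 54.3% for Tap2 (WT first, SD where given, n = 4 mice each). Without thinning they were 85.1% ± 7.60 and 95.6% ± 1.54 for Psmb9 and 78.5% ± 9.52 and 93.0% ± 2.23 for Tap1. Over 7 sparse genes, 4 (Tap1, Tap2, Psmb8 and Psmb9) reached p = 0.0286, the lower limit of an exact permutation test (two-sided) between groups of 4 mice, which is 0.05 after Benjamini-Hochberg adjustment and so not under the threshold. Tapbp (adjusted p = 0.08), Psmb10 (0.133) and Nlrc5 (0.229) did not reach it in the same exact test. Thinned to 8000 UMIs and without thinning, Tap1 and Psmb9 again reached the unadjusted limit of that test. Tap2 (unadjusted p = 0.0571 in both) and Psmb8 (0.0857 at 8000 UMIs and 0.171 without thinning) did not, with overlap between genotypes.

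Microglia, the resident macrophages of the brain (Tmem119, P2ry12, Sall1), numbered 326 WT and 158 CaMKK2 KO cells. Psmb9 rose in CaMKK2 KO microglia, the only one of the 10 genes called (1 of 10, against 0.622% of all genes). It stood at 95.2, 123, 174 and 132 CPM in WT and 247, 321, 168 and 306 CPM in CaMKK2 KO mice, with a log2 fold change of 1.01 (SE 0.23, edgeR adjusted p = 0.0450), and CaMKK2 KO mouse 3 fell just inside the WT range. H2-D1 stood at 2749, 2939.7, 3937 and 3982 CPM in WT and 4861, 5093, 4526 and 5168 CPM in CaMKK2 KO mice without overlap, but its adjusted p was 0.0748 by edgeR. B2m stood at 4407, 5128, 7732 and 6973 CPM and 7060.3, 7656, 7086 and 7423 CPM, so that its highest value was a WT mouse. All 10 log2 fold changes were positive, from 0.18 for Psmb10 to 1.01 for Psmb9, 7 had an unadjusted p under 0.05 in the higher direction (against 4.27% of all genes), and 3 did not overlap (H2-K1, H2-D1 and Tap1, against 2.69% of all genes). The call of Psmb9 was lost without any one of WT mice 1, 2 and 4 and CaMKK2 KO mice 1, 2 and 4, and its log2 fold change ran from 0.87 to 1.19 with each mouse left out in turn. TMM scaling raised the median of all genes in microglia by 0.11 on the log2 scale and left all 10 values positive. In this gate T cell markers summed to 8.68 to 17.8 CPM in WT and 13.7 to 105 CPM in CaMKK2 KO mice (4 of 4 with a higher mean), mature DC markers to 60.7 to 87.5 CPM and 72.8 to 234 CPM (4 of 5), and classical monocyte markers to 61.4 to 685 CPM and 425 to 864 CPM (5 of 6), and their part in the result was not tested.

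Classical monocytes (cMono: Ly6c2, Vcan, Ccr2), the blood-borne precursors of TAM, numbered 733 WT and 1445 CaMKK2 KO cells. H2-D1 rose (1 of 10 genes called, against 0.974% of all genes), from 2014, 2634, 2805 and 2941 CPM in WT to 3727, 4779, 3809.8 and 4577 CPM in CaMKK2 KO mice (log2 fold change 0.70, SE 0.14, edgeR adjusted p = 0.0398). H2-K1 stood at 988, 1639, 1772 and 2179 CPM in WT and 2649, 3239, 3042 and 3237 CPM in CaMKK2 KO mice, also without overlap (edgeR adjusted p = 0.0654). The largest log2 fold change was again that of Psmb9, 1.15 (SE 0.35), whose WT mice stood at 75.1, 274, 268 and 206 CPM, so the low WT mouse 1, with 46 cells, widened the spread. In 5 genes every CaMKK2 KO mouse lay above every WT mouse (H2-K1, H2-D1, B2m, Psmb8 and Psmb9, against 4.98% of all genes), and 8 had an unadjusted p under 0.05 in the higher direction (against 7.81% of all genes). T cell markers summed to 8.15 to 15.4 CPM in WT and 17.4 to 24.0 CPM in CaMKK2 KO cMono without overlap (4 of 4 with a higher mean), and neutrophil markers to 71.6 to 1985 CPM and 86.3 to 181 CPM (2 of 6), and their part in the result was not tested. H2-D1 was no longer called without WT mouse 2, 3 or 4 or without CaMKK2 KO mouse 1, 2 or 4, and TMM scaling, cells weighted equally or outlying cells kept also left 0 called.

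**Figure D3:**
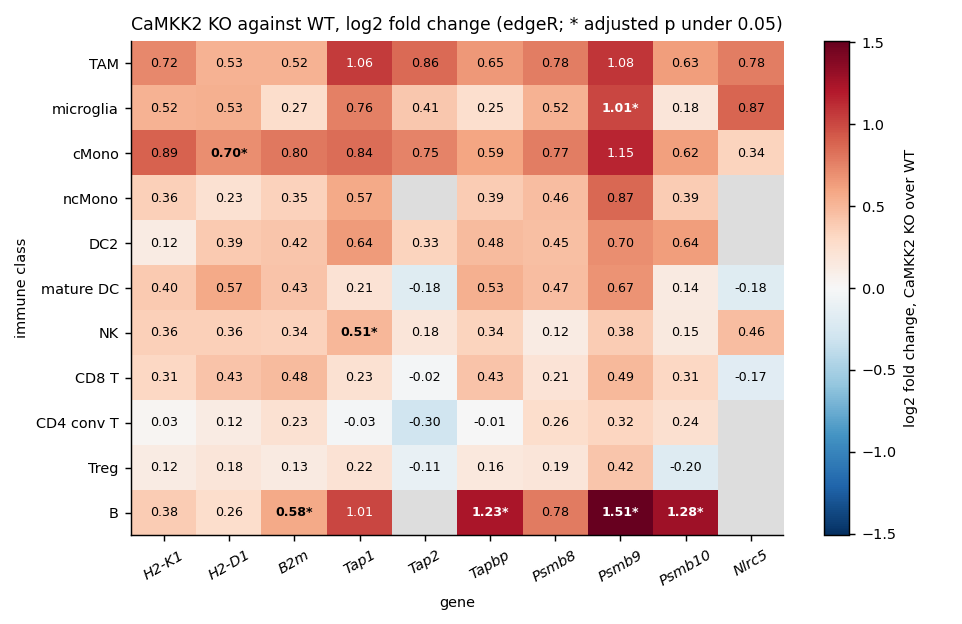
Log2 fold change of each gene, CaMKK2 KO over WT, in 11 immune classes, by edgeR on UMIs summed per mouse; red is higher and blue lower in CaMKK2 KO mice. Asterisks mark the 7 gene and class pairs with an adjusted p under 0.05, and light grey squares genes with under 200 UMIs in the class, which were not tested.

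Of 110 pairs of gene and class, 103 had enough UMIs to be tested, 94 had a positive log2 fold change, 7 were called higher in CaMKK2 KO mice and 0 lower. Of all genes, 34.0% (microglia) to 62.7% (NK cells) had a positive value. From 0% (non-classical monocytes) to 2.95% (B cells) of all genes were called higher. The pairs share mice and libraries, so they are not independent. The 4 calls in B cells (Cd79a, Ms4a1) were the most in any class, 4 of 8 genes against 2.95% of all genes. Psmb9 rose there from 111, 148, 194 and 84.4 CPM to 329, 509, 222 and 544 CPM (log2 fold change 1.51, SE 0.31, edgeR adjusted p = 0.0242). Psmb10 rose from 88.6, 103, 91.2 and 67.5 CPM to 171, 253, 167 and 283 CPM (1.28, SE 0.25, edgeR adjusted p = 0.0227). Tapbp rose from 44.3, 127, 131 and 101 CPM to 222, 277, 159 and 335 CPM (1.23, SE 0.30, edgeR adjusted p = 0.0394). These 3 genes did not overlap between genotypes, with CaMKK2 KO mice 2 and 4 the highest in each, and neither did H2-D1 (4 of 8, against 6.73% of all genes). B2m rose from 1440.1, 1701, 1881 and 1739 CPM to 2457, 2572, 1864 and 3169 CPM with CaMKK2 KO mouse 3 inside the WT range (0.58, SE 0.15, edgeR adjusted p = 0.0438). The class held 14 to 87 cells and 59244 to 420970 UMIs per mouse, with a median of 3553 UMIs per cell in WT and 4988 in CaMKK2 KO mice. TAM markers summed to 234 to 443 CPM in WT and 87.2 to 157 CPM in CaMKK2 KO B cells (1 of 7 with a higher mean in CaMKK2 KO), and B cell markers to 4365 to 5914 CPM and 4789 to 5577 CPM, and classical monocyte markers to 399 to 1123 CPM and 777 to 1463 CPM, and their part in the result was not tested. The calls fell to 0 without WT mouse 1, 2 or 4 or CaMKK2 KO mouse 2 or 4, to 2 without WT mouse 3, and to 1 when scored doublets were kept. The share of all genes called higher fell too, to 0.593%, 0% and 0.288% without WT mouse 1, 2 and 4. It was 0% without CaMKK2 KO mouse 2 or 4, 1.77% without WT mouse 3 and 0.939% with scored doublets kept.

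NK cells (Ncr1, Klrb1c), which read class I on other cells, numbered 580 WT and 838 CaMKK2 KO cells. Tap1 rose from 104, 112, 134 and 118 CPM to 160.0, 185, 145 and 178 CPM (log2 fold change 0.51, SE 0.11, edgeR adjusted p = 0.0264), the only gene called (1 of 10, against 2.19% of all genes). In 7 of 10 the genotypes did not overlap, against 8.31% of all genes, and the median log2 fold change was 0.35, against 0.08 for all genes. Without CaMKK2 KO mouse 3, 6 genes were called, against 10.6% of all genes, and the Tap1 call was lost without WT mouse 1, 2 or 4 or CaMKK2 KO mouse 1, 2 or 4. Depth differed, with a median of 8727 UMIs per WT and 6469 per CaMKK2 KO cell, and classical monocyte markers summed to 645 to 905 CPM in WT and 1095 to 1206 CPM in CaMKK2 KO NK cells, whose part in the result was not tested. H2-Aa, a class II gene that mouse NK and T cells lack, stood at 50.7, 39.2, 32.1 and 34.3 CPM in WT and 80.6, 92.7, 78.4 and 115 CPM in CaMKK2 KO NK cells. If that came with TAM RNA in the proportions of the same mouse, it would carry at most 7.98% of the level of any of the 10 genes in WT and 2.33% in CaMKK2 KO NK cells. These limits hold for RNA from TAM only, and which cells it came from was not tested. TAM markers summed to 133 to 170 CPM in WT and 81.1 to 116 CPM in CaMKK2 KO NK cells (3 of 7 with a higher mean in CaMKK2 KO).

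CD8 T cells (Cd8a, Cd8b1), the cells that class I peptides are shown to, numbered 396 WT and 342 CaMKK2 KO cells. None of the 10 genes was called by edgeR (0 of 10, against 0.994% of all genes), 4 had an unadjusted p under 0.05 in the higher direction (against 11.96% of all genes), and DESeq2 called 1. B2m came closest, at 2402, 3403, 3462 and 3253 CPM in WT and 4489, 4486, 3724 and 4885 CPM in CaMKK2 KO mice without overlap (log2 fold change 0.48, SE 0.12, edgeR adjusted p = 0.0544). Genotypes did not overlap in 4 of 10 genes (H2-D1, B2m, Psmb8 and Psmb9), against 7.97% of all genes. The log2 fold changes of Tap2 (−0.02) and Nlrc5 (−0.17) were below 0, and that of Tap2 changed sign with cells weighted equally (0.16) and with scored doublets kept (0.04). WT mouse 1 had 16 CD8 T cells.

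In the other 5 classes edgeR called none of the 10 genes. The counts were 0 of 8 in non-classical monocytes (ncMono, against 0% of all genes), 0 of 9 in conventional type 2 dendritic cells (DC2, 0.301%), 0 of 10 in mature DC (0.698%), 0 of 9 in conventional CD4 T cells (0.893%) and 0 of 9 in Treg (0.310%). Unadjusted p under 0.05 in the higher direction were found for 2, 7, 6, 0 and 1 genes in the same order, against 4.64%, 7.31%, 8.77%, 9.10% and 6.25% of all genes, and DESeq2 called 0, 0, 1, 0 and 0. Median log2 fold changes were 0.39, 0.45, 0.41, 0.12 and 0.16. In mature DC, already the highest class, H2-D1 stood at 4289, 3936 and 3108 CPM in the 3 WT mice with 10 cells and 5540.1, 5872, 5323 and 5758 CPM in CaMKK2 KO mice without overlap (log2 fold change 0.57, SE 0.15, edgeR adjusted p = 0.0905). Tap2 and Nlrc5 had negative values there (both −0.18), and that of Nlrc5 was 0.21 without WT mouse 4.

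The difference between genotypes was compared between TAM and each other class within mice. None of the 10 genes was called in any of the 10 comparisons, against 1.44% of all genes for NK cells, 0.956% for CD8 T cells, 5.13% for B cells, 0.0629% for microglia and 22 of 7322 genes for cMono. The shares of all genes were 0.0974% for ncMono, 0.122% for DC2, 0.642% for mature DC, 0.589% for conventional CD4 T cells and 0.0650% for Treg. At an unadjusted p of 0.05, 6 genes passed for TAM against NK cells and 6 for TAM against CD8 T cells, all larger in TAM. The median difference in log2 fold change was 0.43 and 0.46 over the 10 genes, against −0.14 and −0.12 over all genes. At that cut, 4 genes passed for Treg, 2 for conventional CD4 T cells, 2 for mature DC and 1 for DC2, all larger in TAM. For cMono it was 1, B2m, which was larger in cMono (difference −0.33), and for microglia and ncMono 0. Against B cells, 4 of 8 genes had a larger value in TAM and 4 in B cells. There 3 passed that cut, Tapbp (−0.63), Psmb10 (−0.68) and Psmb9 (−0.47), all larger in B cells. The share of all genes at that cut was not counted, so these unadjusted counts do not set the 10 genes apart from other genes. Without CaMKK2 KO mouse 3, 4 genes (Tap2, Psmb8, Psmb9 and Psmb10) were called as larger in TAM than in NK cells, where the share of all genes called also rose, to 10.1%.

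The make-up of the proteasome was followed as the share of the immunoproteasome subunit in its pair with the constitutive one, a ratio that does not depend on library size. In TAM, Psmb9 made up 31.0, 47.5, 46.0 and 43.5% of Psmb9 and Psmb6 UMIs in WT mice and 61.1, 64.6, 55.3 and 70.0% in CaMKK2 KO mice, without overlap. Psmb8 made up 67.6, 76.5, 78.0 and 76.5% of Psmb8 and Psmb5 UMIs in WT and 81.1, 84.1, 82.0 and 85.5% in CaMKK2 KO mice, also without overlap. For Psmb10 with Psmb7 the means were 62.8% ± 6.05 and 73.1% ± 4.85 (SD, n = 4), and they overlapped. In microglia, Psmb9 made up 35.2, 41.7, 42.6 and 38.7% in WT and 56.8, 70.5, 47.2 and 67.2% in CaMKK2 KO mice, about as wide a gap as in TAM. Over 33 pairs and classes the same exact permutation test gave p values down to that limit, 0.0286, and the lowest adjusted p was 0.126. Classes with 3 mice in 1 genotype could not reach that limit. With every share at the lowest value its number of mice allowed, the adjusted values would still have stayed above the threshold. This permutation test therefore could not call any share, and it does not show that the shares were alike. No constitutive partner passed the test in TAM, where the log2 fold changes were 0.05 for Psmb5, −0.14 for Psmb6 and −0.06 for Psmb7 (edgeR adjusted p = 0.799, 0.411 and 0.677).

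**Figure D4:**
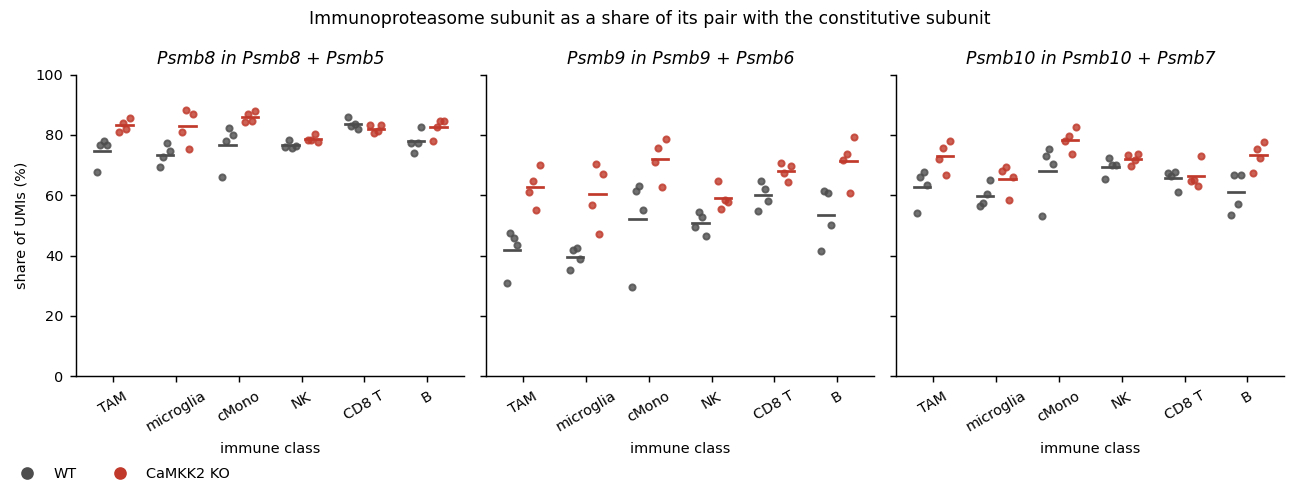
Share of UMIs (%) of Psmb8, Psmb9 and Psmb10 in the pair with their constitutive counterpart in 6 immune classes; points are mice, bars the mean of 4 mice, WT grey and CaMKK2 KO red. Psmb9 separates the genotypes without overlap in TAM, microglia and NK cells, while Psmb8 lies above 60% in every mouse shown. In B cells the lowest count of a mouse was 22, 10 and 6 UMIs for the pairs of Psmb8, Psmb9 and Psmb10.

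In TAM, microglia and cMono the same mice were lowest for most of the 10 genes. These mice were picked from the same values, and how closely the genes followed each other was not tested. WT mouse 1 was the lowest WT mouse for 10 of 10 genes in TAM, 10 of 10 in microglia and 10 of 10 in cMono, where it was lowest for 26.3%, 24.9% and 32.3% of all genes, and for 8 of 10 in NK cells (34.0% of all genes), 8 of 10 in CD8 T cells (44.3%) and 6 of 8 in B cells (36.8%). CaMKK2 KO mouse 3 was the lowest CaMKK2 KO mouse for 10 of 10 genes in TAM (25.0% of all genes), and CaMKK2 KO mouse 2 or 4 was the highest for 10 of 10 (46.7% of all genes). In NK cells CaMKK2 KO mouse 2 or 4 was the highest for 6 of 10 genes, against 64.4% of all genes. The mean of log2(CPM + 1) over the 10 genes in TAM was 7.82, 8.73, 8.87 and 8.58 in WT and 9.11, 9.52, 8.87 and 9.62 in CaMKK2 KO mice. WT mouse 3 and CaMKK2 KO mouse 3 were thus level. In NK cells it was 8.39, 8.63, 8.66 and 8.56 in WT and 8.94, 8.91, 8.76 and 8.93 in CaMKK2 KO mice, a narrower range in which the genotypes did not overlap.

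**Figure D5:**
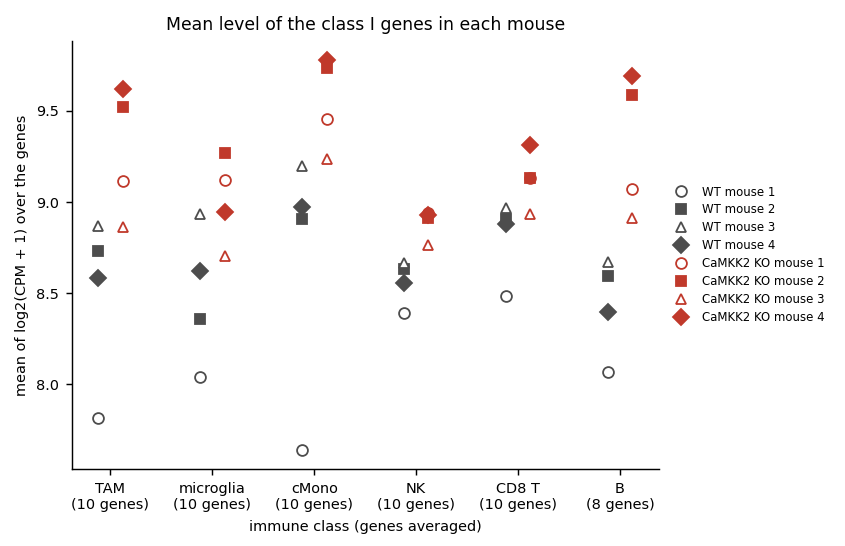
Mean of log2(CPM + 1) over the 10 genes (8 in B cells) in 6 immune classes, each symbol 1 mouse, WT grey and CaMKK2 KO red; open symbols are mice 1 and 3, filled symbols mice 2 and 4. WT mouse 1 is the lowest of the 8 mice in every class shown, and CaMKK2 KO mouse 3 is the lowest CaMKK2 KO mouse in each.

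Of the transcripts of the interferon gamma axis, Ifng, over all cells of a mouse, stood at 2.95, 33.9, 47.4 and 27.5 CPM in WT and 53.8, 71.4, 49.8 and 49.1 CPM in CaMKK2 KO mice, so WT mouse 1 was lowest by far. Among the CaMKK2 KO mice, mouse 2 was the highest for Ifng, and mice 3 and 4 were the lowest and nearly level. How Ifng and the class I genes followed each other over mice was not tested. The Ifng level also depends on which cells a mouse gave, and 51.0% of the cells of WT mouse 1 were TAM and 1.59% CD8 T cells. Irf1, which binds class I promoters, stood at 30.8, 62.7, 90.6 and 79.5 CPM in WT TAM and 105, 201, 82.1 and 217 CPM in CaMKK2 KO TAM (log2 fold change 1.19, SE 0.38, edgeR adjusted p = 0.125). CaMKK2 KO mice 2 and 4 were the highest for Irf1, as for the 10 genes, and it did not pass the test in TAM. In microglia Irf1 rose, from a mean of 76.2 ± 17.2 CPM to 161 ± 44.8 CPM (SD, n = 4 each; log2 fold change 1.12, SE 0.21, edgeR adjusted p = 0.0213).

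The rest of the pathway was read from lists of genes. In TAM, 1 of 10 tested other class I and class Ib heavy chains rose (H2-M2, a little-studied class Ib gene, from 0.11 to 4.96 CPM in WT to 10.2 to 25.7 CPM in CaMKK2 KO mice), and 9 of 10 had positive values. H2-T23, the mouse Qa-1 heavy chain, stood at 156, 455, 519 and 403 CPM in WT and 712, 993, 629.5 and 1083 CPM in CaMKK2 KO TAM (log2 fold change 1.16, SE 0.33, edgeR adjusted p = 0.0997). H2-Q7, a class Ib gene of the Qa-2 family, stood at 97.1, 359, 374 and 323 CPM and 263, 435, 349 and 586 CPM, and the genotypes overlapped. Of the 11 loading and trimming genes 0 passed in either direction (5 with a positive value, median −0.04), among them the chaperone Calr (0.02), the oxidoreductase Pdia3 (−0.04), the peptidase Erap1 (0.36) and the tapasin-related Tapbpl (0.86). The counts called were also 0 of 7 for constitutive proteasome beta subunits (median −0.03), 0 of 7 for alpha subunits (0.17), 0 of 6 for activators and assembly factors (0.13), 0 of 6 for interferon receptors and kinases (−0.03) and 0 of 13 for type I interferon response genes (0.39), against 0.872% of all genes called higher and 1.40% lower. The interferon genes themselves had too few UMIs in TAM to be tested.

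By contrast, 9 of 9 tested MHC class II genes rose in TAM, with a median log2 fold change of 1.82, and 1 of 18 regulators rose, Ciita, the class II counterpart of Nlrc5. Ciita stood at 4.64, 36.4, 37.8 and 37.1 CPM in WT and 181, 256, 153 and 291 CPM in CaMKK2 KO TAM (log2 fold change 2.93, SE 0.52, edgeR adjusted p = 0.0206). H2-Aa stood at 593, 3354, 3373 and 2750.1 CPM in WT and 10084, 11249.6, 9283 and 11417 CPM in CaMKK2 KO TAM (2.06, SE 0.44, edgeR adjusted p = 0.0438). The lowest p in the lists were those of H2-DMa (log2 fold change 1.24), H2-DMb2 (1.43) and H2-Ob (1.60), which help or restrain peptide exchange on class II (edgeR adjusted p = 0.00223, 0.00110 and 0.000998). Ciita and H2-Aa separated the genotypes widely, including CaMKK2 KO mouse 3, where the class I genes lay close to the WT range. The class I and class II changes were not tested against each other.

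In B cells both subunits of the proteasome activator PA28 rose, Psme1 from 222, 284, 296 and 219 CPM to 449, 639.9, 436 and 853 CPM (log2 fold change 1.20, SE 0.24, edgeR adjusted p = 0.0227) and Psme2 from 55.4, 115, 114 and 67.5 CPM to 241, 323, 159 and 404 CPM (1.58, SE 0.31, edgeR adjusted p = 0.0227). Psma7 and Psmb4, subunits of the proteasome core, also rose in B cells, by 1.05 and 0.78 on the log2 scale (edgeR adjusted p = 0.0271 and 0.0394). Isg15, an interferon-induced ubiquitin-like protein, rose from 11.1, 15.1, 0.00 and 0.00 CPM to 120.3, 143, 63.4 and 413 CPM (edgeR adjusted p = 0.0215). B cells of the WT mice held 90271, 331077, 175468 and 59244 UMIs, so these WT levels rest on few or no Isg15 UMIs. Isg15 had enough UMIs to be tested only through the CaMKK2 KO mice, mostly mouse 4. The size of its rise is therefore uncertain. The class Ib heavy chain H2-Q6 fell in both NK and CD8 T cells. It stood at 228 to 280 CPM in WT and 134 to 179 CPM in CaMKK2 KO NK cells (log2 fold change −0.74, SE 0.12, edgeR adjusted p = 0.00344), and at 188 to 245 CPM and 73.4 to 156 CPM in CD8 T cells (−0.84, SE 0.19, edgeR adjusted p = 0.0382). Of the 91-base reads possible in the last 500 bases of H2-Q6, 10.5% also match other genes, so part of its count is uncertain, whereas 0% of those of H2-K1 and H2-D1 do. Cd74 (1.03) and H2-Eb1 (1.02), both of class II, were with H2-Q6 the further list genes of lowest p in NK cells, as H2-Eb1 (0.95) was with H2-Q6 and Stat3 in CD8 T cells, at levels of 70.6 to 205 CPM for Cd74 and 26.5 to 105 CPM for H2-Eb1. Class II counts were called higher for 5 of 7 genes tested in NK cells (against 2.19% of all genes) and 3 of 5 in CD8 T cells (0.994%), types that lack class II, and whether they came with RNA of other cells was not tested. Stat3 fell in CD8 T cells, from 152 to 255 CPM in WT to 122 to 150.3 CPM in CaMKK2 KO mice (−0.64, SE 0.15, edgeR adjusted p = 0.0403).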

How the data were processed

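Gene by cell count tables were deposited by the authors as raw UMI counts, 1 per genotype, made from 10X 3' libraries with, per the submitters' processing notes, Cell Ranger 4.0.0, STAR 2.7.5c and the mm10 build. Hashtag antibody counts deposited in the same tables assigned cells to mice (HTODemux of Seurat 5.3.0, quantile 0.99). Of 6689 WT and 7271 CaMKK2 KO barcodes, 5974 and 6696 carried a single hashtag. Cells outlying by 3 median absolute deviations (744 and 922) and Scrublet doublets (227 and 174) were removed. Cells were gated by marker score (at least 0.3, margin 0.1, set on these data), which left 953 cells ungated. A TAM or monocyte score led in 262 WT and 408 CaMKK2 KO cells of these. DC1 and neutrophils were too few to test.

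Counts were summed per mouse and class, and edgeR 4.0.16 (R 4.3.3) quasi-likelihood tests were fitted over all genes with at least 200 UMIs, with total UMIs as library size and Benjamini-Hochberg adjustment over all genes tested. A gene was called at an adjusted p under 0.05. CPM are UMIs per 1000000 UMIs of the mouse and class. Interactions were fitted with the mouse as a block. Shares were compared by exact permutation tests over mice. Replicates were mice, identified by hashtag within 1 library per genotype. The tests were checked on simulated data. The alternatives were DESeq2 1.42.0, TMM scaling, filters on low counts, other gates, clusters, kept outlying cells or doublets, equal weight per cell, another hashtag rule and leaving out each mouse.

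The genes and lists were chosen with earlier results of these data known. Named besides the 10 genes were fixed pathway genes (some items are not reported here), the 3 further list genes with the lowest p in TAM, NK and CD8 T cells, and the 5 genes most like the mean of the 10 over WT classes. H2-M2, H2-M3, Rfx5, Irf8, Ifnar1, Psma7 and Psmb4 were named after their values were seen. H2-Ke6, an unrelated enzyme caught by the name pattern of the heavy chains, was left out of that list, and 13 of 15 type I interferon response genes were matched by symbol. Gene positions are from GENCODE M21 and promoters from RefSeq GRCm38.p6.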

Additional observations from a re-analysis of the deposited data

Results flagged for a closer look

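Of 180 groups of 4 mice looked at, 1 mouse stood far from the other 3 in 8 (4.44%), and chance gives about 1 in 20. In 6 of the 8 it was WT mouse 1. H2-K1 and H2-D1 stood at 1150.2 and 1779 CPM in TAM of that mouse. H2-K1, H2-D1 and Tap2 stood at 1919, 1648 and 92.6 CPM in its 16 CD8 T cells, and Tap1 at 151 CPM in its DC2. CaMKK2 KO mouse 3 stood apart with Tap1 at 127 CPM in ncMono, and CaMKK2 KO mouse 1 with Nlrc5 at 115 CPM in mature DC. All 8 were the lowest mouse of their group.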

How the results depend on the processing

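With 4 mice a group and 1 library per genotype, p-values measure the spread between mice and not that between libraries. No paired analysis was possible because the labels give no replicate numbers and a hashtag number does not tie a WT to a CaMKK2 KO mouse. Of the 10 genes, DESeq2 called 6 in TAM, 3 in microglia, 4 in cMono, 1 in mature DC, 2 in NK, 1 in CD8 T and 4 in B cells, against 3.71%, 1.39%, 2.45%, 1.01%, 1.88%, 0.765% and 3.96% of all genes called higher. Here and in the settings below, classes not named kept the count of the edgeR test described above. No filter on low counts gave 4 in TAM, 4 in microglia, 4 in cMono, 4 in DC2, 5 in NK, 3 in CD8 T and 6 in B cells (1.15%, 1.09%, 1.19%, 1.32%, 3.22%, 1.84% and 1.18% of all genes), and a filter of 10 UMIs gave 2 in NK, 1 in CD8 T and 6 in B cells (1.94%, 0.969% and 1.27%). TMM scaling gave 0 in cMono. Weighting cells equally gave 0 in microglia, cMono, NK and B cells. Classes from clusters gave 5 in cMono, where the share of all genes called higher rose from 0.974% to 6.40%, and 2 in DC2 (0.663%), and the stricter gate 2 in cMono (1.52%). Outlying cells kept gave 0 in cMono and 5 in NK cells (4.76%), Scrublet doublets kept gave 1 in B cells (0.939%), and the hashtag ratio gave 2 in microglia (0.789%) and 1 in CD8 T cells (1.48%). Leaving out 1 mouse gave 0 to 3 in TAM, 0 to 1 in microglia, 0 to 2 in cMono, 0 to 1 in DC2, 0 to 6 in NK, 0 to 1 in CD8 T and 0 to 5 in B cells, and 0 to 4 for TAM against NK cells. The shares of all genes called higher then ran from 0.461% to 1.65% in TAM, 0.390% to 0.920% in microglia and 0.267% to 1.30% in cMono. They ran from 0.0318% to 0.886% in DC2, 0.805% to 10.6% in NK, 0.237% to 1.86% in CD8 T and 0% to 7.09% in B cells. For TAM against NK cells the share called ran from 0.235% to 10.1%. The cause of these changes was not tested. TMM scaling moved the split of all genes called higher and lower from 30 and 43 to 37 and 31 in microglia, from 146 and 67 to 98 and 77 in NK, from 52 and 40 to 34 and 51 in CD8 T, and from 16 and 7 to 16 and 11 in conventional CD4 T cells. Uncalled log2 fold changes that changed sign were H2-K1 in DC2, log2 fold change −0.0029 with the stricter gate, Tap1 in mature DC, log2 fold change −0.080 with cells weighted equally, Tap2 in CD8 T, log2 fold change 0.037 with doublets kept and 0.16 with cells weighted equally, and Psmb10 in Treg, log2 fold change 0.058 with outlying cells kept. In conventional CD4 T cells these were H2-K1 in CD4 conv T, log2 fold change −0.00045 with doublets kept, Tap1 in CD4 conv T, log2 fold change 0.15 and Tap2 in CD4 conv T, log2 fold change 0.022 with cells weighted equally, and Tapbp in CD4 conv T, log2 fold change 0.037 with doublets kept, 0.29 with cells weighted equally and 0.011 with the hashtag ratio. Leaving out 1 mouse, uncalled values crossed 0 for Psmb10 (−0.038 to 0.33) and Nlrc5 (−0.43 to 0.21) in mature DC, Tap2 in CD8 T (−0.091 to 0.052) and Treg (−0.23 to 0.027), and H2-K1 (−0.049 to 0.14), Tap1 (−0.19 to 0.068) and Tapbp (−0.16 to 0.073) in conventional CD4 T cells.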

Other observations

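Beyond TAM, MHC class II genes rose in CaMKK2 KO mice in 7 of 7 tested in microglia (median log2 fold change 3.77) and in 6 of 9 in cMono (1.98), by edgeR's adjusted p under 0.05, against 0.622% and 0.974% of all genes. In the microglia gate mature DC markers, T cell markers and classical monocyte markers also had higher mean sums in CaMKK2 KO mice (68.3 against 139, 12.05 against 46.3 and 295 against 539.9 CPM, WT first), and their part was not tested. None of 9 passed in DC2, 5 in mature DC or 8 in B cells, the classes that carry class II at rest, where medians were 0.10, −0.15 and 0.09. In cMono the class II transactivator Ciita rose from 13.5, 40.6, 71.8 and 70.5 CPM in WT to 266, 263, 233 and 267 CPM in CaMKK2 KO mice (log2 fold change 2.29, SE 0.33, edgeR adjusted p = 0.00703). Rfx5, which binds class I and class II promoters, rose from 3.57 to 7.70 CPM to 10.7 to 16.2 CPM (1.34, SE 0.28, edgeR adjusted p = 0.0437), and the class Ib heavy chain H2-M3, which presents formylated peptides, from 30.8 to 64.1 CPM to 90.2 to 107 CPM (0.91, SE 0.17, edgeR adjusted p = 0.0319). In NK cells Irf8 rose from 774 to 884 CPM to 964 to 1363 CPM (0.49, SE 0.11, edgeR adjusted p = 0.0250) and the interferon receptor chain Ifnar1 from 62.4 to 88.2 CPM to 95.0 to 114 CPM (0.51, SE 0.13, edgeR adjusted p = 0.0450). These genes were named after their values were seen.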
